A study of Sus scrofa with 24 samples.

Results

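Transcripts of 9 inflammatory and regulatory cytokine genes were followed in dorsal subcutaneous fat of 24 weaned Iberian piglets: TNF, IL6 and IFNG, the IL12 family genes IL27, IL12B and IL23R, and the regulatory genes IL10, IL10RA and TGFB1. They were chosen by symbol, and each was read from the Ensembl pig gene that carries it, 9 of 25880 genes in the table. The piglets were males of 33 days, 5 days after weaning, each of a separate litter, 6 per maternal diet. All were offspring of Iberian sows fed an experimental diet from gestation day 85 to weaning at day 28. The control diet (C) had 30 mg/kg of added vitamin E (all-rac-α-tocopheryl acetate), the VE diet 100 mg/kg, the HT diet 30 mg/kg with 1.5 mg/kg of hydroxytyrosol, an olive polyphenol, and the VEHT diet 100 mg/kg with 1.5 mg/kg of hydroxytyrosol. No group was free of added vitamin E, the antioxidants were given to the sows, and the study's own feed analysis placed the vitamin E contents closer together than the doses added. Levels are given in CPM, counts scaled to library size with TMM factors. The question was whether either antioxidant, or both together, changed these genes.

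Adipose tissue holds resident macrophages and lymphocytes between its fat cells, and these leukocytes make most of its cytokines. TNF, IL6 and IFNG are released in inflammation: TNF acts through a pair of receptors on NF-κB, IL6 through gp130 on STAT3, and IFNG, a product of T and NK cells, activates macrophages. IL12, IL23 and IL27 are cytokines of antigen-presenting cells that direct T cells. IL10 and TGF-β restrain these responses, IL10 through its receptor chain IL10RA on leukocytes. In bulk tissue, more cells of a type and more RNA per cell cannot be told apart.

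Libraries held 36614639 to 61919211 gene counts (median 47564362). Adipocyte markers were above 0 in all 24 libraries for all 9 genes of the list. The libraries of G041 and G047 (C) and of G141 (VEHT) stood apart: 5 leukocyte markers (PTPRC, CD53, LCP1, CORO1A and CD48) summed to 2579, 2328 and 2933 CPM in them, against 61.0 to 440 in the other 21, and 9 adipocyte markers to 2890, 3115 and 2830 CPM, against 7094 to 27699. The 11 T cell markers summed to 559, 368 and 479 CPM in these libraries (5.65 to 148.2 elsewhere), the 12 macrophage markers to 14433, 10812 and 14190 CPM (322 to 2992), and the 5 plasma cell markers to 1041, 572 and 1042 CPM (3.43 to 153). The 4 neutrophil markers (331, 444 and 522 CPM against 2.22 to 88.7), 6 B cell markers (61.8, 48.2 and 42.3 against 6.01 to 12.9) and the 2 matched of 6 lymph node stroma markers, CCL19 and CCL21 (176, 350 and 634 against 26.9 to 129), were also highest there, and 5 endothelial markers lowest (482, 319 and 499.5 against 784 to 2322). The 4 dendritic cell markers were highest in these libraries too (29.1, 30.3 and 43.8 CPM against 8.91 to 23.3). The 4 red blood cell markers were lowest (65.4, 139 and 105 CPM against 220 to 940). Other lists overlapped with the other 21 libraries. These were cytotoxic lymphocyte markers (700, 251 and 489 against 16.8 to 262), mast cell markers (91.7, 138 and 56.5 against 14.9 to 56.9) and stromal progenitor markers (2115, 1329 and 2303 against 1073 to 5419). Skeletal muscle markers were at 52.5, 5.86 and 1152 CPM, against 2.32 to 39171 elsewhere. The part of these cell types in the diet comparisons was not tested, apart from 1 fit of the interaction with the leukocyte markers as a covariate. Results are given with and without the 3 libraries.

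These 3 libraries were the highest 3 of the 24 for each of the 9 cytokine genes. They held 95.8% of the CPM of IL23R summed over all libraries, 86.7% of IL27, 82.4% of IL12B, 65.2% of IFNG, 62.3% of IL10RA, 60.2% of TNF, 52.4% of IL10, 47% of TGFB1 and 40% of IL6, where equal levels would give 12.5%. The gap to the fourth library was widest for IL23R, at 9.84-fold, and for IL27, at 6.75-fold, and was narrowest for IL6, where C piglet G047 (4.37 CPM) and HT piglet G189 (4.10 CPM) were 1.07-fold apart. VEHT piglets held the fourth place for 8 genes: G208 for TNF, IL27, IL23R, IL10 and TGFB1, G148 for IL12B and IL10RA, and G162 for IFNG.

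**Figure D1:**
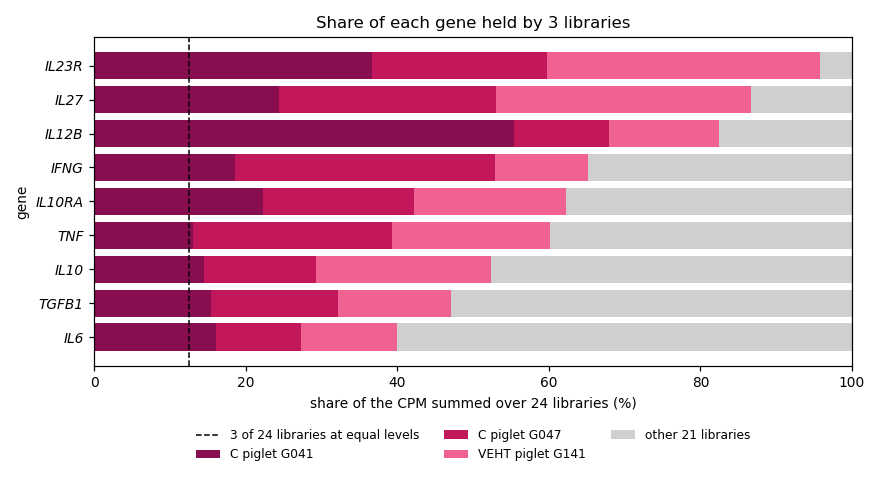
Share of the CPM summed over 24 libraries that G041 and G047 (C) and G141 (VEHT) held for each cytokine gene (stacked bars, percent), with the dashed line at the 12.5% that 3 of 24 equal libraries would hold. The 3 shares add up to between 40% (IL6) and 95.8% (IL23R).

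TNF and IL6 are early response genes whose promoters are known for NF-κB control, so the 250 bases before the RefSeq start of both (Sscrofa11.1) are shown, with matches of the motifs searched in capitals (a TATA box, TATAAA, in TNF, and an NF-κB site in IL6). TNF lies on chromosome 7 (23699635 to 23702393, ENSSSCG00000001404) with its window at 23699385 to 23699634, and IL6 on chromosome 9 (91506421 to 91510830, ENSSSCG00000020970).
TNF: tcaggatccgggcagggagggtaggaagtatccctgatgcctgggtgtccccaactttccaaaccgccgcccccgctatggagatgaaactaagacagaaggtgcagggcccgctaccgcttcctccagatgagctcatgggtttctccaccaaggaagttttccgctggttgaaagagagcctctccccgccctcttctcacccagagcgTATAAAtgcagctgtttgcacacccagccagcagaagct
IL6: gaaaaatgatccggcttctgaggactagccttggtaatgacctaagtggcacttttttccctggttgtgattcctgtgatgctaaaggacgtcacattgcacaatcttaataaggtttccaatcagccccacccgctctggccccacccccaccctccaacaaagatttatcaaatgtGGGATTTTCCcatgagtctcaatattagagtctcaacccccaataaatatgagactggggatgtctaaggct
Both windows are written 5′ to 3′ on the strand of the gene. The TATA box lay 39 to 34 bases before the TNF start, and a second member, IFNG, had one 129 to 124 bases before its start, against 9.77% of 19556 RefSeq promoters of this length with a match on either strand. The NF-κB site lay 72 to 63 bases before the IL6 start, and IL10 had one 82 to 73 bases before its start, against 14.0% of promoters. No window of the 9 genes held an AP-1 site (TGANTCA, 5.27% of promoters), a GAS element (TTCNNNGAA, 6.12%), the core of an interferon-stimulated response element (3.01%) or a SMAD element (GTCTAGAC, 0.164%).

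TNF was counted in every library. It ranged from 0.678 to 24.7 CPM in C (median 2.40, n = 6) and from 0.748 to 2.55 CPM in VE (median 1.59). Levels in HT were 0.216 to 2.47 CPM (median 1.33), and in VEHT 0.260 to 19.6 CPM (median 3.13). The high ends were C piglets G047 (24.7) and G041 (12.2) and VEHT piglet G141 (19.6), and the other libraries of all 4 diets overlapped between 0.216 and 4.33 CPM. The interaction of the 2 antioxidants, the vitamin E effect with hydroxytyrosol less the vitamin E effect without it, was 4.04 ± 1.25 on the log2 scale (SE, n = 24, edgeR adjusted p = 0.0964), and 0.77 ± 0.90 without the 3 libraries (unadjusted p = 0.402).

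IL6 was counted in every library as well. It ranged from 0.524 to 6.26 CPM in C (median 1.04) and from 0.326 to 1.45 CPM in VE (median 0.877). In HT it ranged from 0.573 to 4.10 CPM (median 1.08), and in VEHT it ranged from 0.510 to 4.95 CPM (median 1.31). Besides the 3 libraries, HT piglet G189 stood high, and all other libraries were at 1.47 CPM (HT piglet G008) or lower whatever the diet. The interaction was 1.62 ± 0.89 on the log2 scale (edgeR adjusted p = 0.407) and turned to -0.51 ± 0.66 without the 3 libraries.

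IFNG (chromosome 5, 32477906 to 32482670, ENSSSCG00000032963) was near the detection limit in many piglets, with fewer than 10 counts in 11 libraries. It ranged from 0.0581 to 11.0 CPM in C (median 0.654) and from 0.0400 to 0.818 CPM in VE (median 0.121). The HT libraries lay between 0 and 1.52 CPM (median 0.191) and the VEHT libraries between 0.0260 and 3.95 CPM (median 0.828). C piglets G047 (11.0) and G041 (5.92) and VEHT piglet G141 (3.95) were highest, with VEHT piglet G162 next at 2.43, and below these the diets overlapped. The interaction was 4.83 ± 1.72 (edgeR adjusted p = 0.165), and 1.18 ± 1.54 without the 3 libraries.

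IL27 (chromosome 3, 18421962 to 18427916, ENSSSCG00000039300) encodes the p28 subunit of the cytokine. It ranged from 0.0194 to 22.2 CPM in C (median 0.322) and from 0.141 to 0.666 CPM in VE (median 0.281). Levels in HT were 0 to 1.14 CPM (median 0.406), and in VEHT 0.0521 to 26.0 CPM (median 0.763). VEHT piglet G141 (26.0) and C piglets G047 (22.2) and G041 (18.8) formed a separate top, VEHT piglet G208 followed at 2.79, and every VE and HT library was at 1.14 or lower. The interaction was 7.92 ± 2.13 (edgeR adjusted p = 0.0654), and 0.28 ± 1.40 without the 3 libraries. IL27 overlaps APOBR and LOC110260087 in the annotation, and whether reads were counted by strand is not given in the sources used here.

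IL12B (chromosome 16, 64143268 to 64158929, ENSSSCG00000017044) encodes the p40 subunit shared by IL12 and IL23. It was at 0 in 12 of 24 libraries and reached 10 counts in 5. These were C piglet G041 with 111 counts (2.04 CPM), VEHT piglet G141 with 25 (0.536 CPM), C piglet G047 with 21 (0.461 CPM), and VEHT piglets G148 with 14 (0.241 CPM) and G162 with 11 (0.223 CPM). No VE or HT library held more than 3 counts, and the 5 libraries with 10 counts or more were all of C or VEHT piglets. The interaction was 9.10 ± 2.18 (edgeR adjusted p = 0.0455), and 2.69 ± 2.35 without the 3 libraries (unadjusted p = 0.266).

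IL23R (chromosome 6, 145337765 to 145401909, ENSSSCG00000003801), the receptor chain specific to IL23, was the most uneven. Counts were 773 in C piglet G041 (14.2 CPM), 652 in VEHT piglet G141 (14.0 CPM) and 410 in C piglet G047 (9.0 CPM). VEHT piglets G208, G162 and G148 followed with 37, 17 and 7 counts, and the other 18 libraries held 0 to 4. All 6 HT libraries were at 0, which allows up to 3 counts over the group or 0.0106 CPM, and the C mean was at least 368-fold higher and the VEHT mean at least 242-fold higher than this limit. Without the 3 libraries the same bounds were 2.98 and 26.1, and against the VE mean of 0.0199 ± 0.0175 CPM (SD, n = 6) the bound was 1.88.

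The fitted interaction of IL23R was 17.41 ± 3.61 (edgeR adjusted p = 0.0380), a size that depends on the prior count because HT was at 0. Without the 3 libraries it was 7.39 ± 2.15 with an unadjusted p of 0.00376, the one gene of the 9 under 0.05 there, where 3.76% of all genes were under 0.05, and its adjusted p was 0.995. HT was at 0 in that fit as well, so this size also depends on the prior count. IL23R overlaps C6H1orf141 in the annotation.

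IL10 (chromosome 9, 67400727 to 67405941, ENSSSCG00000015652) was counted in every library. It ranged from 0.445 to 12.1 CPM in C (median 1.57) and from 0.342 to 3.96 CPM in VE (median 1.88). In HT it ranged from 0.353 to 2.43 CPM (median 1.43), and in VEHT it ranged from 0.573 to 18.9 CPM (median 3.42). VEHT piglet G141 (18.9) and C piglets G047 (12.1) and G041 (11.9) were highest, and without them the C range ended at 1.66 CPM, inside that of VE. The interaction was 3.17 ± 1.16 (edgeR adjusted p = 0.178), and 0.17 ± 0.86 without the 3 libraries.

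IL10RA (chromosome 9, 45310527 to 45324557, ENSSSCG00000015085) was counted in every library. It ranged from 7.32 to 307 CPM in C (median 21.8) and from 11.6 to 33.1 CPM in VE (median 21). The HT libraries lay between 14.2 and 40.1 CPM (median 22.5) and the VEHT libraries between 14.8 and 278 CPM (median 48.6). G041 (307) and G047 (277) of C and G141 (278) of VEHT lay far above, and VEHT piglets G148, G162 and G208 came next at 54.3, 49.7 and 47.6 CPM, above every VE and HT library, whereas VEHT piglets G173 (22.3) and G164 (14.8) lay among them. The interaction was 4.14 ± 1.12 (edgeR adjusted p = 0.0666), and 0.44 ± 0.53 without the 3 libraries.

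TGFB1 (chromosome 6, 49332169 to 49348642, ENSSSCG00000003017) encodes latent TGF-β1, which is also a regulator of matrix deposition. It ranged from 47.8 to 424 CPM in C (median 74.4) and from 43.5 to 83.1 CPM in VE (median 58.5). Levels in HT were 35.9 to 93.9 CPM (median 64.6), and in VEHT 38.2 to 378 CPM (median 71.1). The 3 libraries lay at 392 (G041), 424 (G047) and 378 CPM (G141), and the other 21 at 35.9 to 109 CPM with the 4 diets overlapping. The interaction was 2.51 ± 0.80 (edgeR adjusted p = 0.109), and 0.24 ± 0.38 without the 3 libraries. TGFB1 overlaps LOC110261354 in the annotation.

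**Figure D2:**
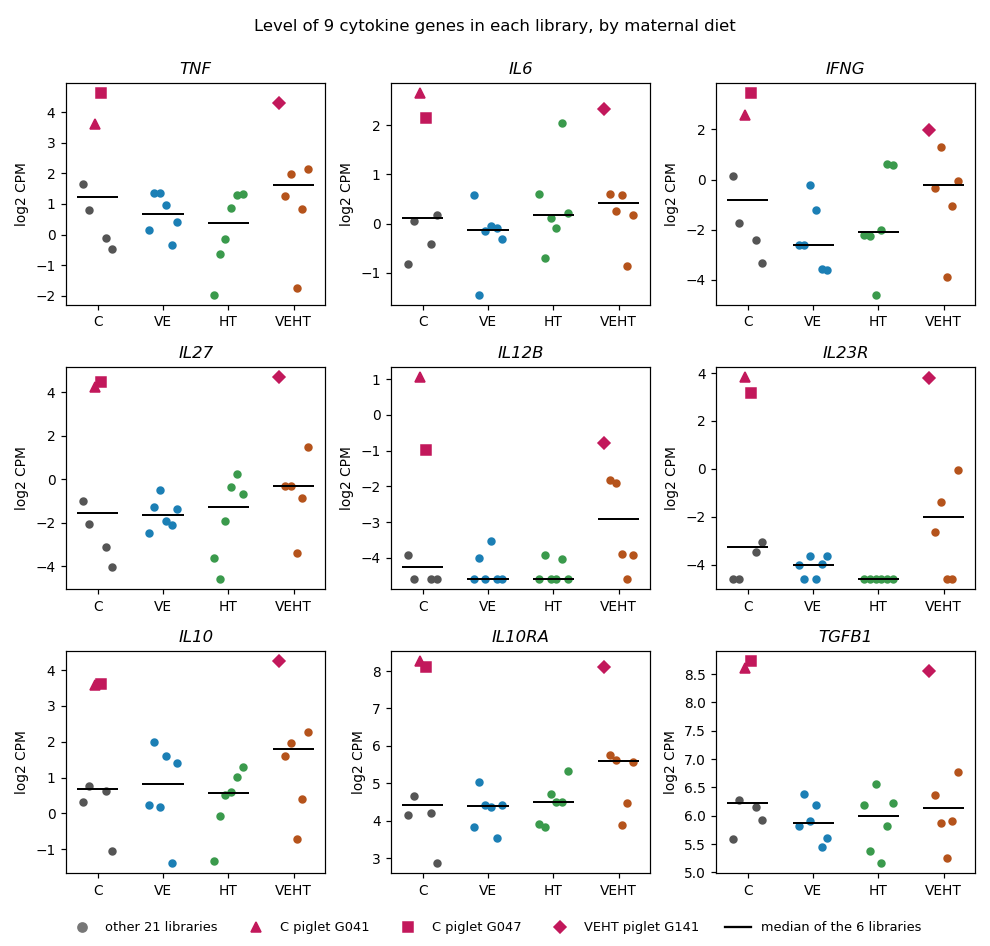
Log2 CPM (prior count 2) of the 9 cytokine genes in each of the 24 libraries by maternal diet, with the median of the 6 libraries as a line. C piglets G041 (triangle) and G047 (square) and VEHT piglet G141 (diamond) are the highest 3 points of every panel, and IL23R is at 0 counts in all HT libraries.

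In the factorial model over 24 libraries, 5 of the 9 genes passed the threshold for the interaction (adjusted p of at most 0.10): IL23R, IL12B, IL27, IL10RA and TNF, all with a positive sign, the pattern of high C and VEHT and low VE and HT. This was read against 3.95% of all 17602 genes called and 3.68% called with a positive sign. TGFB1, IFNG, IL10 and IL6 did not pass. The median of the 9 genes was 4.14 on the log2 scale, against 0.02 over all genes, and 8 of 9 had an unadjusted p under 0.05, as did 14.8% of all genes. DESeq2 called 8 of 9 (7.13% of all genes), and limma voom with sample weights called 0 (2 of 9 under an unadjusted 0.05, with 5.77% of all genes).

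The interaction calls rested on few libraries. Without the 3 libraries edgeR and DESeq2 each called 0 of 9 (1 of 9 under an unadjusted p of 0.05 in both), the median was 0.44, and 0 of 17620 genes passed in edgeR. The 3 were the highest libraries for each of the 9 genes, so this removal lowers a positive interaction by selection. Leaving out 1 library gave 0 to 8 calls. Leaving out G141 (VEHT) ended all calls, G041 (C) left 1, and 2 were left without G047 (C), VE piglet G077 or G220 or HT piglet G008, G012 or G066, 3 without VE piglet G091 or G127 or HT piglet G121 or G189, and 8 without C piglet G206. IL23R remained called in 23 of these 24 fits and IL12B in 22, whereas IL27 did in 15, IL10RA in 13 and TNF in 7.

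With the mean log2 CPM of the 5 leukocyte markers as a covariate, 0 of 9 genes were called for the interaction by edgeR, and 1, IL23R, had an unadjusted p under 0.05 (3.43% of all genes did). Its interaction was 7.21 ± 2.23 (unadjusted p = 0.00494, adjusted p = 0.999 in edgeR), against 17.41 without the covariate, and that of IL12B was 2.74 ± 1.94. With HT at 0 for IL23R, both of its sizes depend on the prior count. The other 7 genes lay between -0.78 (IL27) and 0.27 (IFNG). The leukocyte markers were themselves highest in G041, G047 and G141, so diet and leukocyte content cannot be told apart in this fit. DESeq2 was not run with this covariate.

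In the edgeR fits of all libraries the C-over-diet changes of the 9 genes were positive against both single antioxidants, and 0 passed, whereas DESeq2 made calls in both. With limma voom, 4 of 9 were negative in C against VE and 5 of 9 in C against HT. In C against VE edgeR called 0 of 9, as 0.0% of 17532 genes, with 8 of 9 at an unadjusted p under 0.05 and 12.1% of all genes there. DESeq2 called 6 of 9 (5.01% of all genes), namely TNF, IFNG, IL27, IL23R, IL10RA and TGFB1, and limma voom with sample weights called 0. The log2 changes were 7.47 ± 2.04 (IL23R), 4.90 ± 1.72 (IL12B), 4.42 ± 1.49 (IL27), 3.56 ± 1.28 (IFNG), 2.41 ± 0.88 (IL10RA), 2.09 ± 0.84 (TNF), 1.55 ± 0.57 (TGFB1), 1.42 ± 0.64 (IL6) and 1.24 ± 0.83 (IL10). Their edgeR adjusted p ran from 0.310 to 0.609, and the median was 2.41 against 0.03 over all genes.

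Without C piglets G041 and G047 the C-over-VE changes closed around 0. Their median was -0.082, with 3 positive and 6 negative values between -0.81 (IL27) and 0.66 (IL23R), and neither edgeR nor DESeq2 called any, with 0 of 9 under an unadjusted p of 0.05 in both (7.55% of all genes in edgeR). TNF (-0.082), IL6 (-0.070), IL27, IL12B (-0.78), IL10 (-0.76) and IL10RA (-0.25) had turned sign. G041 and G047 were the highest C libraries for each gene, so leaving them out lowers C by selection. The fit without them therefore does not show that C and VE were alike.

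C against HT shares the 6 C libraries with the comparison above. EdgeR called 0 of 9, as 0.0% of 17468 genes, with 7 of 9 under an unadjusted 0.05 and 12.6% of all genes there. DESeq2 called 4 of 9 (4.24% of all genes), namely TNF, IL27, IL12B and IL23R, and limma voom with sample weights called 0. The log2 changes were 5.46 ± 1.76 (IL12B), 3.93 ± 1.62 (IL27), 2.39 ± 0.93 (TNF), 2.38 ± 1.32 (IFNG), 2.22 ± 0.87 (IL10RA), 1.77 ± 0.80 (IL10), 1.53 ± 0.59 (TGFB1) and 0.60 ± 0.69 (IL6), with IL23R given above by its bound. The median was 2.38 on the log2 scale, also with IL23R at its bound of 8.52, against 0.03 over all genes.

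Without C piglets G041 and G047 the median C-over-HT change of the 8 genes still tested was -0.34, from -1.31 (IL27) to 0.19 (TNF). IL23R was dropped by the filter, since too few libraries held counts. EdgeR and DESeq2 called 0 of 8, with 0 of 8 under an unadjusted p of 0.05 in both (4.82% of all genes in edgeR). IL6 (-0.87), IFNG (-0.65), IL27, IL12B (-0.21), IL10 (-0.24) and IL10RA (-0.44) had turned sign. Here too, leaving out the highest C libraries of each gene lowers C by selection, and does not show that C and HT were alike.

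**Figure D3:**
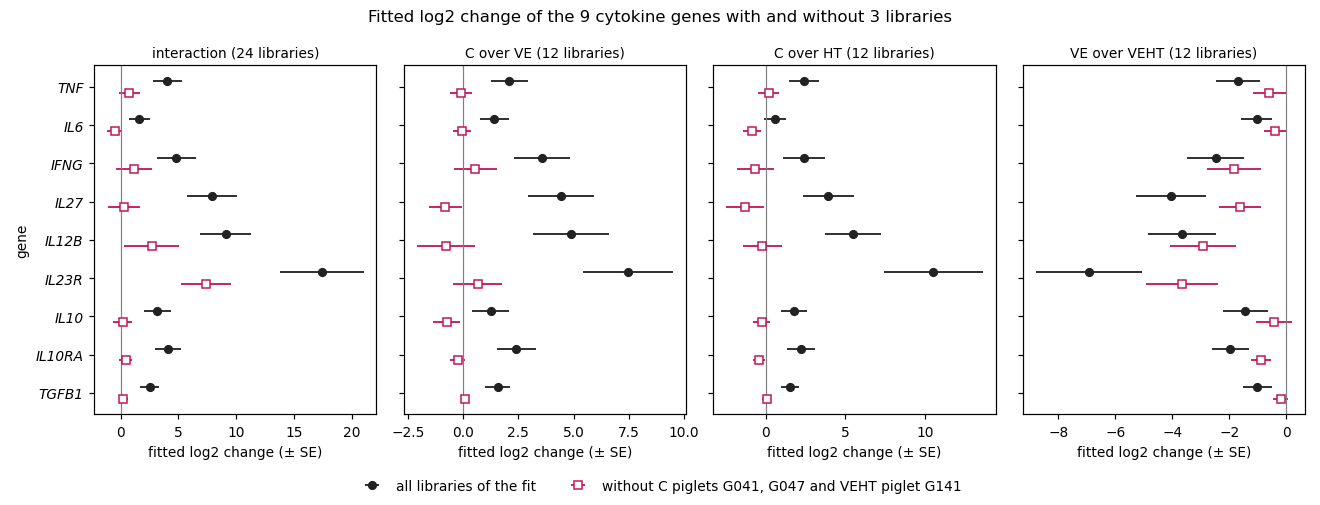
Fitted log2 change (± SE, edgeR) of the 9 cytokine genes for the interaction and for C over VE, C over HT and VE over VEHT, from all libraries of the fit (filled circles) and without G041 and G047 (C) and G141 (VEHT) (open squares). IL23R was not tested for C over HT without these libraries. For the interaction the median falls from 4.14 to 0.44. The libraries left out were the highest for each gene, which favours this fall.

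Between C and the diet with both antioxidants none of the 9 genes passed. In C against VEHT edgeR called 0 of 9, as 0.0% of 17607 genes, with 0 of 9 under an unadjusted 0.05 (2.1% of all genes), and DESeq2 (0.00568% of all genes) and limma voom called 0 as well. The median change was 0.45, from -0.20 ± 0.93 (IL10) to 1.21 ± 1.49 (IL12B), with IL23R at 0.57 ± 1.91. With SEs this wide, the lack of calls does not show that the groups were alike. Of the 3 libraries, G041 and G047 are of C and G141 is of VEHT. Without them all 9 changes were negative, that is higher in VEHT, with a median of -1.15 against -0.01 over all genes. The 3 were the highest libraries for each gene, so this removal lowers C more than VEHT by selection. In this shift selection and diet cannot be told apart, and the part of either was not tested. IL12B (-3.65 ± 1.44) and IL10RA (-1.11 ± 0.45) had an unadjusted p under 0.05, as did 5.03% of all genes, and 0 passed the adjustment in edgeR or DESeq2.

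VEHT was set against each single antioxidant with 12 libraries per fit. In VE against VEHT edgeR called 0 of 9 (0.0% of 17525 genes), with 6 of 9 under an unadjusted 0.05 (9.04% of all genes), and DESeq2 called IL10RA alone (1.46% of all genes) and gave no p for IL27 and IL23R. All 9 changes were negative, higher in VEHT, with a median of -1.96, and IL10RA was at -1.96 ± 0.64 (edgeR adjusted p = 0.440). Without VEHT piglet G141 all 9 stayed negative with a median of -0.89, and IL23R (-3.68 ± 1.26), IL12B (-2.92 ± 1.15) and IL10RA (-0.89 ± 0.36) had an unadjusted p under 0.05, as did 6.99% of all genes. In this smaller fit 0 of 9 passed the adjustment with edgeR or DESeq2.

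HT against VEHT, with the same VEHT libraries, gave 0 of 9 called by edgeR (0.0% of 17469 genes) and by DESeq2 (0.681%, with no p for IL27 and IL23R), with 6 of 9 under an unadjusted 0.05 in edgeR (7.89% of all genes). The median was -1.94, also with IL23R at its bound. Without VEHT piglet G141 it was -0.85, IL12B (-3.46 ± 1.16) and IL23R had an unadjusted p under 0.05, as did 4.20% of all genes, IL6 turned to 0.44, and edgeR and DESeq2 called 0. The VEHT counts left were then 14 (G148), 11 (G162) and at most 1 elsewhere for IL12B, and 37 (G208), 17 (G162) and 7 (G148) for IL23R.

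VE and HT hold none of the 3 libraries. EdgeR called 0 of 9 between them and DESeq2 0 of 7, with no adjusted p for IL12B and IL23R (0.0% and 0.598% of 17397 genes), the median was -0.04, and IL23R, with 6 counts over the VE group and 0 in HT, was the single gene with an unadjusted p under 0.05 in edgeR (9.52% of all genes). The changes of the other 8 ran from -1.19 (IFNG) to 0.57 (IL12B).

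In edgeR the average effect of either antioxidant did not pass for any of the 9 genes, and its direction turned without the 3 libraries. For vitamin E, over both hydroxytyrosol levels, the log2 effects ran from -1.15 ± 0.83 (IFNG) to 1.24 ± 1.48 (IL23R) and edgeR called 0 of 9 (0.0% of 17602 genes, 0 of 9 under an unadjusted 0.05, with 3.93% of all genes). For hydroxytyrosol they ran from -1.84 ± 1.68 (IL23R) to 0.21 ± 0.44 (IL6), again with 0 of 9 called and 0 of 9 under 0.05 (0.0% of all genes called, 6.22% under 0.05). The medians were -0.34 for vitamin E (7 of 9 negative) and -0.17 for hydroxytyrosol (6 of 9 negative), and without the 3 libraries 0.47 and 0.64 (8 of 9 positive in both). The 3 libraries were the highest for each gene. Leaving them out takes G041 and G047 from the lower level of both antioxidants and G141 from the higher, which favours this turn by selection. DESeq2 called IL23R in both, at 7.37 ± 1.57 and -7.92 ± 1.57 with HT at 0 (0.0511% and 0.0284% of genes called), and without the 3 libraries it called 0 of 9 in both. In edgeR without these libraries IL23R (3.04 ± 1.09) and IL12B (2.12 ± 0.95) had an unadjusted p under 0.05 for vitamin E, as did 7.51% of all genes, and IL10RA (0.67 ± 0.27) for hydroxytyrosol, as did 8.26%, with 0 of 9 called in both.

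Other genes of these pathways were read from a list of 70 receptors, partners, signal carriers and targets, of which 67 matched the annotation and 63 passed the filter of the factorial fit. For the interaction, 5 of 63 were called by edgeR, all positive, against the 3.95% of all genes given above, and their median was 0.38. They were SOCS3, the feedback inhibitor of IL6 signalling (3.91 ± 1.06, edgeR adjusted p = 0.0659), CIITA, the IFNG-induced switch of MHC class II genes (3.04 ± 0.87, 0.0751), IL12RB1, the receptor chain shared by IL12 and IL23 (4.66 ± 1.43, 0.0960), IL22RA2, a soluble decoy receptor of IL22 (7.82 ± 1.97, 0.0532), and IL21R, the IL21 receptor (7.73 ± 2.01, 0.0587). Each of the 5 had the 3 libraries as its highest: SOCS3 was at 156, 291 and 516 CPM in G041 and G047 (C) and G141 (VEHT), against 15.5 to 75 CPM in the other 21, and CIITA at 209, 328 and 201 CPM against 19.0 to 62.3. IL21R was at 30.2, 24.7 and 28.4 CPM in the same order, against 0.0222 to 2.37.

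Without the 3 libraries 0 of 63 pathway genes were called by edgeR or DESeq2, and 0 had an unadjusted p under 0.05 in either, with a median of 0.01. IL22RA2 was nearest, at 3.44 ± 1.66. DESeq2 on all libraries called 12 of 63, all positive, against 7.13% of all genes. Leaving out 1 library gave 0 to 11 calls in edgeR, with 0 without C piglet G041, C piglet G047, VE piglet G077, HT piglet G012 or VEHT piglet G141, 1 to 3 without VE piglet G085, G091, G127 or G220 or HT piglet G008, G066, G121 or G189, and 8 to 11 without C piglet G035, G117 or G206 or VEHT piglet G164.

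By sublist, the interaction of the 9 interferon gamma genes had a median of 1.94, with SOCS1, an inhibitor of JAK kinases, at 2.63 ± 0.91 (adjusted p = 0.150) after CIITA. The 9 tested genes of the IL12, IL23 and IL27 family had a median of 1.93, with STAT4, which carries the IL12 signal, at 3.71 ± 1.18 (0.110), and IL17A and IL22, products of IL23-driven T cells, were too rarely counted to be tested. Among 10 TNF signalling genes the median was 0.80, with ADAM17, the sheddase of TNF, at 0.88 ± 0.35 (0.218) and the receptor TNFRSF1B at 1.09 ± 0.45 (0.245). In edgeR SOCS1, STAT4, ADAM17 and TNFRSF1B did not pass, whereas DESeq2 called SOCS1 and STAT4. The medians of the 3 sublists without the 3 libraries were 0.05, 0.45 and 0.05.

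The 7 IL6 signalling genes, SOCS3 included, had a median of -0.05, and STAT3 was at 0.36 ± 0.24 (adjusted p = 0.504). The 17 TGF-β signalling genes had a median of -0.45 and the 6 target genes one of -0.71, with members in both directions: NRROS, which anchors latent TGF-β1 on macrophages, was at 2.56 ± 0.87 (adjusted p = 0.139), TGFB3 at -1.0 ± 0.49 (0.353), and the matrix genes CCN2 at -1.23 ± 0.55 (0.289) and COL3A1 at -1.08 ± 0.71 (0.504). No TGF-β gene passed in edgeR, and DESeq2 called NRROS. Without the 3 libraries TGFB3 was at -1.0, CCN2 at -0.73 and COL3A1 at -1.0, whereas NRROS was at 0.10.

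In the pair comparisons edgeR called 0 of 63 pathway genes in C against VE (21 under an unadjusted p of 0.05, with 12.1% of all genes) and 0 of 63 in C against HT (9 under 0.05, with 12.6% of all genes). DESeq2 called 9 and 3 of 63, against 5.01% and 4.24% of all genes, and 4 of 63 in VE against VEHT, all higher in VEHT, against 1.46%. In C over VE the values of smallest p were IL21R at 4.65, IL22RA2 at 3.89, IL12RB1 at 3.07, STAT4 at 2.49, CIITA at 2.15, SOCS3 at 2.04, LTA, a TNF relative of lymphocytes, at 2.02, NRROS at 1.94, IRF1, an interferon-induced transcription factor, at 1.87, TNFAIP3, an inhibitor of NF-κB signalling, at 1.08 and STAT3 at 0.35, with TGFB3 at -0.77, COL1A1 at -0.93 and COL3A1 at -1.17 in the other direction. Without C piglets G041 and G047 the first 11 were between 0.08 (NRROS) and 1.84 (IL22RA2), and TGFB3, COL1A1 and COL3A1 were at -0.76, -0.86 and -1.16. In C over HT, IL22RA2 was at 4.34, IL21R at 3.80, IL12A, the p35 partner of IL12B, at 2.49, IL27RA, the IL27 receptor, at 1.86, SOCS3 at 1.64, CIITA at 1.58, SOCS1 at 1.57, NRROS at 1.41, FN1 at 1.29, TNFRSF1B and ADAM17 both at 0.54, TGFBR1 at 0.41, STAT3 at 0.23 and CCN2 at -0.65. Without C piglets G041 and G047 they lay between -0.45 (NRROS) and 2.28 (IL22RA2), with IL21R at -0.38 and CIITA at -0.18 turned in sign as was NRROS. The sublist medians went from 0.99 to -0.06 (interferon gamma), from 0.47 to -0.32 (IL12 family) and from 1.01 to -0.13 (the IL10 list). The 5 tested genes of the IL10 list were IL22RA2, IL21R, IL4R, IL13RA1 and BCL3, with no chain of the IL10 receptor among them. IL12A had at most 0.285 CPM in any library.

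Set beside the leukocyte markers, the 9 genes fell into different patterns. Per 1000 CPM of the 5 markers, IL10RA was at 119 in C piglet G041, 119 in C piglet G047 and 94.7 in VEHT piglet G141, within the 86.8 to 233 of the other 21 libraries, and TNF was at 4.74, 10.6 and 6.67, within 2.66 to 16.8. The 3 libraries thus did not stand apart for these genes on this scale. IL27, at 7.31, 9.53 and 8.88, lay above all other 21 (0 to 6.65), and IL23R, at 5.52, 3.87 and 4.77, lay above all of them too (0 to 2.18). IL10 (4.6, 5.20 and 6.46 against 5.08 to 14.4), TGFB1 (152, 182 and 129 against 133 to 1073) and IL6 (2.43, 1.88 and 1.69 against 1.12 to 21.8) lay at the low end. IFNG was at 2.30, 4.71 and 1.35 against 0 to 5.89, and IL12B at 0.792, 0.198 and 0.183 against 0 to 0.722.

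**Figure D4:**
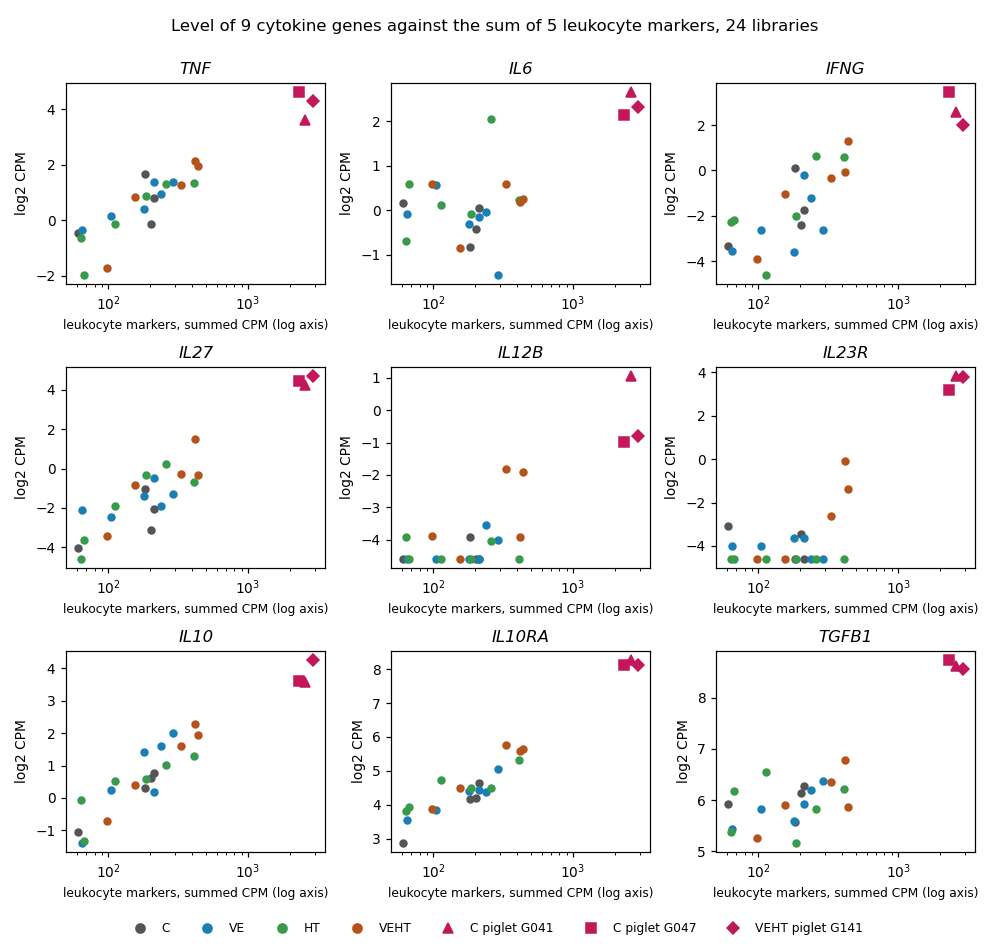
Log2 CPM (prior count 2) of each cytokine gene against the summed CPM of 5 leukocyte markers (log axis) in 24 libraries, coloured by diet. C piglets G041 (triangle) and G047 (square) and VEHT piglet G141 (diamond), at 2328 to 2933 CPM of markers, lie to the right of the other 21 libraries at 61.0 to 440.

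The 9 genes varied together to different degrees. Over the 36 pairs of members, Spearman's rho of log2 CPM ran from 0.25 to 0.90 with a median of 0.51 over 24 libraries, and from -0.11 to 0.85 with a median of 0.26 over the 21 without the 3 libraries. Libraries share cell makeup and depth, so these values are descriptions. Among 11487 genes with a mean of at least 1 CPM, those with the most similar pattern included JAK3 and FYB1 for TNF (rho 0.94 each), GZMA, ZBTB32 and IL2RB for IFNG (0.94 each), TMEM156, IL2RG and SLAMF7 for IL27 (0.96, 0.95 and 0.94), BORA, CD53 and DOK2 for IL10 (0.95 each), and FGD2, LTB4R2 and DHRS9 for IL10RA (0.95, 0.95 and 0.94). For TGFB1 they were RAB35, AMDHD2 and GRK6 (0.94, 0.94 and 0.93). Over the 21 libraries these values lay between 0.90 and 0.94.

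The likeness was lower for the other genes. For IL6 the nearest were SH2B2, GARIN5A and CXCL2 (0.80, 0.79 and 0.78 over 24 libraries, 0.75, 0.69 and 0.70 over 21). For IL12B they were SAP30, STK17B and PRKACB (0.81, 0.77 and 0.77, then 0.71, 0.64 and 0.64) and for IL23R CYP2D6, RNF121 and IL7R (0.75, 0.75 and 0.74, then 0.62, 0.63 and 0.61). IL12B and IL23R were at 0 in 12 libraries each, so many of their ranks were tied.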

How the data were processed

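Dorsal subcutaneous fat of 24 piglets was profiled by sequencing of polyadenylated RNA. The authors used Trim Galore for trimming, HISAT for alignment (pig build Sscrofa11.1) and HTSeq-count for counting, and deposited whole, unnormalised counts for each Ensembl gene. Versions, annotation release and strand setting are not given in the sources used here. Counter entries that name no gene (8.31% to 16.5% without a feature) were left out. Groups came from the diet in the column names, which also carry an animal number. That each piglet was of a separate litter comes from the methods of the study.

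Tests used R 4.3.3 with edgeR 4.0.16 (quasi-likelihood F test, TMM factors) over all genes, without genes at 0 counts in 75% or more of a fit's libraries, and Benjamini-Hochberg adjustment. A call needed an adjusted p of at most 0.10 and, except for the interaction, a fold change of at least 1.5. Pairs of diets were fitted from their 12 libraries alone, and the factorial terms from all 24. The SE is the log2 change over the root of F. DESeq2 1.42.0, limma 3.58.1 (voom with sample weights), RLE factors, other filters, a leukocyte covariate and leaving out libraries were alternatives. Fits without the 3 libraries were added after seeing the data. The chain was tested on simulated data with changes planted in genes of at least 1 CPM. These data had no libraries set apart, so that test does not cover calls that rest on the 3 libraries. Log2 CPM had a prior count of 2.

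The genes, lists and markers were chosen with earlier results of these data known. All 9 genes were named in every comparison. Pathway genes were named where called, together with the 2 of smallest p in each sublist, and the 3 genes most like each member by Spearman's rho, of which 1 is not reported here. Of 25880 genes, 14857 were named from the reference tables and 38, TNF among them, from the study's gene table, using its names only. Promoters were read from the RefSeq annotation of Sscrofa11.1. Precision is limited by counting error at low counts and by 6 animals per diet.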

Additional observations from a re-analysis of the deposited data

Results flagged for a closer look

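For 10 genes the effect of one antioxidant differed with the level of the other, by the edgeR test of the interaction (adjusted p of at most 0.10, n = 24). They were 5 of 9 cytokine genes and 5 of 63 pathway genes tested, where 3.95% of all genes were called. The interaction on the log2 scale was 17.41 for IL23R, 9.10 for IL12B, 7.92 for IL27, 4.14 for IL10RA and 4.04 for TNF among the cytokine genes. Among their pathway genes it was 7.82 for IL22RA2, 7.73 for IL21R, 4.66 for IL12RB1, 3.91 for SOCS3 and 3.04 for CIITA. Without G041 and G047 (C) and G141 (VEHT) none of the 10 passed, in edgeR or in DESeq2, and the values were 7.39, 2.69, 0.28, 0.44 and 0.77 for the cytokine genes and 3.44, 1.36, 1.16, 0.67 and 0.61 for the pathway genes, in the same order. These libraries were the highest for each of the 10 genes, so leaving them out lowers the values by selection. Dixon's gap test for a single far sample marked 0 of 35 combinations of gene and diet, but in C it cannot mark G041 or G047, because both were high together, so this says nothing about them.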

How the results depend on the processing

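No paired analysis was possible because the columns carry no replicate numbers. The design as described held no pairs across diets either, since each piglet was of a separate litter. The 5 cytokine genes called for the interaction became 8 with DESeq2, 2 with filterByExpr (which dropped IL12B and IL23R), 2 at an adjusted p of at most 0.05, and 0 with voom sample weights, with the leukocyte covariate, and without the 3 libraries in edgeR or DESeq2; RLE factors or no filter left 5. The 5 pathway genes became 12 with DESeq2 and 0 with voom, the covariate, the stricter threshold or without the 3 libraries. DESeq2 raised the 0 calls of edgeR to 1 for the vitamin E effect, 1 for the hydroxytyrosol effect, 6 in C against VE, 4 in C against HT and 1 in VE against VEHT, and those of pathway genes to 9, 3 and 4 in C against VE, C against HT and VE against VEHT. Leaving out 1 library gave 0 to 8 cytokine and 0 to 11 pathway calls for the interaction, and 0 cytokine calls in every pair and main effect and 0 pathway calls in C against VE and C against HT. Over all genes the interaction had 696 calls, 1255 with DESeq2, 166 at 0.05, and 0 with voom, the covariate or edgeR without the 3 libraries. The cause of these differences between tools was not tested.

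Signs turned as follows. In C over VEHT 8 of 9 were positive, but 1 with voom and 0 without the 3 libraries. For vitamin E 2 of 9 were positive, but 7 with voom and 8 without the 3 libraries, and for hydroxytyrosol 3, but 7 and 8. Leaving out the 3 libraries takes more high libraries from C than from VEHT, which favours these turns. For the interaction, IL6 was -0.51 without the 3 libraries (-0.52 in DESeq2) and -0.27 with the leukocyte covariate, which also gave IL27 -0.78, IL10 -0.59 and IL10RA -0.10. In C over VE, without C piglets G041 and G047, edgeR gave TNF -0.082, IL6 -0.070, IL27 -0.81, IL12B -0.78, IL10 -0.76 and IL10RA -0.25, DESeq2 gave -0.083, -0.064, -0.82, -0.70, -0.76 and -0.25, and voom on all libraries gave TNF -0.10, IL27 -0.98, IL10 -0.47 and IL10RA -0.0071. In C over HT, edgeR without them gave IL6 -0.87, IFNG -0.65, IL27 -1.31, IL12B -0.21, IL10 -0.24 and IL10RA -0.44, DESeq2 gave -0.90, -0.63, -1.32, -0.17, -0.24 and -0.45, and voom gave IL6 -0.38, IFNG -0.24, IL27 -0.54, IL10 -0.014 and IL10RA -0.20. G041 and G047 were the highest C libraries for each gene, which favours the turns without them. In HT over VEHT, IL6 was 0.44 without VEHT piglet G141 (0.46 in DESeq2) and 0.29 with voom, and leaving out 1 library gave -0.79 to 0.44. In VE against VEHT the 9 genes kept their sign under every alternative run, except that filterByExpr tested 7 of them. Of the summed CPM, the share of the 3 libraries without TMM factors was 38.4% (IL6) to 95.7% (IL23R). IL12B, with 191 counts in all, and IL23R, with 1908, were at 0 in 12 libraries each.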
